A study of Rattus norvegicus with 3 samples.

Results

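Small leucine-rich proteoglycans (SLRPs) are secreted matrix proteins built from leucine-rich repeats. The family was taken as 10 genes found by their names in the deposited values, namely Bgn, Dcn, Aspn, Fmod, Lum, Prelp, Omd, Ogn, Epyc and Chad, out of 20896 gene names listed in any library. All 10 were listed in both libraries of rats with crossbite, and 9 were listed in the sham library, where Omd was not analysed. Most SLRPs sit on collagen fibrils, where they set the diameter and spacing of the fibrils, and several also hold growth factors such as TGF-β in the matrix. Chondroitin, dermatan or keratan sulfate chains are carried by many members. In cartilage and bone they are part of the pericellular and territorial matrix, and loss of biglycan together with fibromodulin in mice is known to lead to degeneration of the temporomandibular joint (TMJ).

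The libraries came from cartilage and subchondral bone of the mandibular condyle of wild-type SD rats. The sham group received Vector AAV without crossbite, the UAC group received Vector AAV after unilateral anterior crossbite (UAC, which loads the joint abnormally), and the UAC + miR-330 group received miR-330 AAV after the same operation. All rats were injected with adeno-associated virus (AAV) into the TMJ and kept for 8 weeks. Each group was 1 library made from 16 pooled condyles of 8 rats, so the rats of a group could not be told apart, differences between groups carry no replicate check and were not tested. The question addressed was how the condyle differs after UAC, and how it differs under miR-330 given on top of UAC.

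Levels are in CPM. This is how many UMIs (unique molecular identifiers, 1 for each captured RNA molecule) a gene had per 1000000 UMIs of a cluster or library. Depth was 77668015 UMIs in 15 clusters for sham, 92629658 in 18 clusters for UAC and 97255383 in 19 clusters for UAC + miR-330. Brackets after a level or a ratio hold its exact 95% interval, which covers counting error only. A UMI counts a molecule once at its 3′ end, so levels of different genes were not divided by gene length. How fully each gene was captured or annotated was not tested, so levels of different genes compare counts and not RNA amounts.

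Nearly all SLRP RNA lay in 1 cluster of each library. That cluster, called the skeletal cluster, was chosen as the one with the most enriched chondrocyte markers, none of which is a family member. It was cluster 12 in sham, cluster 16 in UAC and cluster 17 in UAC + miR-330, each with 19 of 20 chondrocyte markers enriched. Osteogenic markers were also enriched there (10, 11 and 11 of 11 in sham, UAC and UAC + miR-330), as were fibroblast markers (8, 8 and 9 of 13). Of 8 tendon and ligament markers, 7 were enriched there in each library. Of 8 endothelial markers, 4 were enriched there in sham, 1 in UAC and 1 in UAC + miR-330. In each library 2 of 6 mural and 2 of 10 skeletal muscle markers were enriched there. The cluster thus mixed cartilage, bone, fibroblast and tendon genes, with more endothelial markers enriched in sham than in the others. Among its 10 leading genes were Col2a1, Col1a1, Sparc and Hapln1 in every library, and no family member. Its share of all UMIs was 11.6% in sham, 6.46% in UAC and 6.05% in UAC + miR-330.

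Every listed member had its highest level in the skeletal cluster, 9 of 9 in sham and 10 of 10 in each of the other libraries. The interval there lay above that of every other cluster for 8 members in each library. The exceptions were Epyc in all 3 libraries and Omd in UAC and UAC + miR-330, each with 19 UMIs or fewer in the skeletal cluster. For biglycan (Bgn), the share of its UMIs in that cluster was 96.4% (96.3 to 96.6) in sham, 96.6% (96.5 to 96.8) in UAC and 96.4% (96.2 to 96.6) in UAC + miR-330. Shares of the other members with at least 200 UMIs were of the same order, up to 98.0% (97.4 to 98.4) for Dcn in UAC. The lowest was that of Ogn in UAC + miR-330, at 89.8% (85.4 to 93.3), where 25 of its 246 UMIs lay elsewhere.

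**Figure D1:**
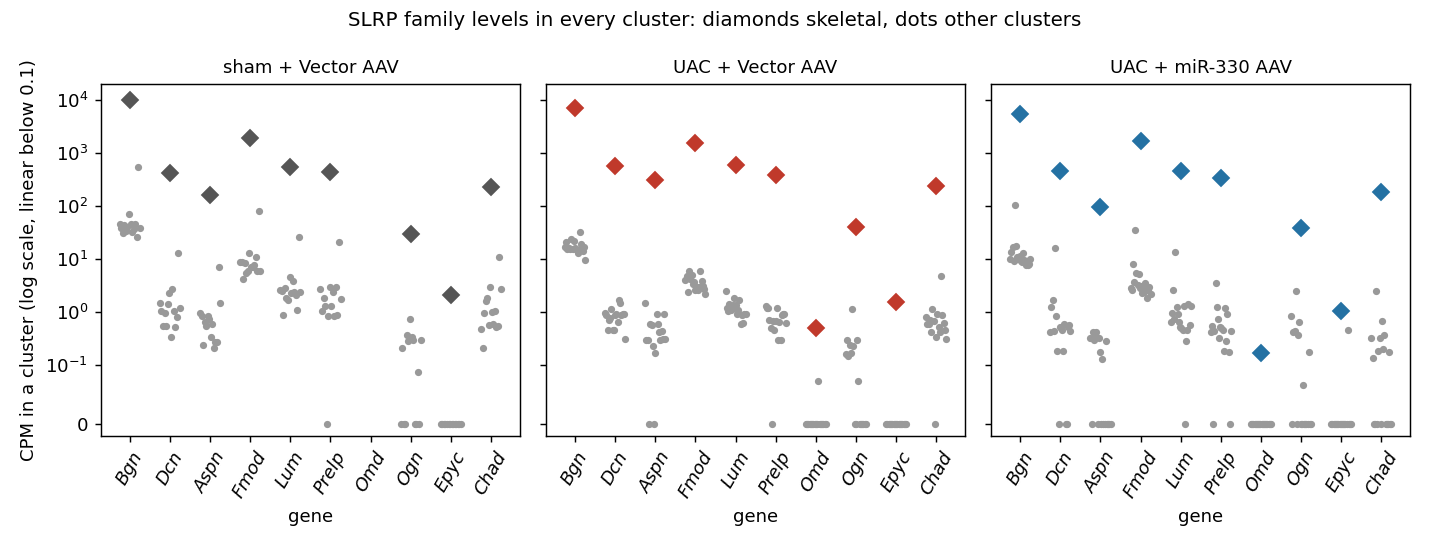
Level of each SLRP gene in every cluster of the 3 libraries, in CPM on a log axis that is linear below 0.1. Diamonds are the skeletal cluster and dots the other 14, 17 and 18 clusters of sham, UAC and UAC + miR-330; Omd was not analysed in sham. Every diamond lies above all dots of its gene.

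Outside the skeletal cluster the family summed to a median of 53.02 CPM over the other 14 clusters in sham, 23.2 CPM over 17 in UAC and 15.4 CPM over 18 in UAC + miR-330. No correction was made for ambient RNA, and its part in these low levels was not tested.

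A single further cluster stood out in sham and in UAC + miR-330. In sham it was cluster 14, where the family summed to 689 CPM (648 to 731), which was 5.13% of the skeletal level. The chondrocyte markers there stood at 4.15% of theirs. The other sham clusters lay between 35.3 and 97.6 CPM. In cluster 14 Bgn stood at 5.48%, Chad at 4.90%, Prelp at 4.86%, Lum at 4.70%, Aspn at 4.44%, Fmod at 4.12% and Dcn at 3.12% of their skeletal levels. Ogn and Epyc had 0 UMIs there. Cluster 14 also had 7 of 8 erythroid, 7 of 8 mast cell and 5 of 14 macrophage markers enriched, so it was left without a name.

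In UAC + miR-330 it was cluster 5, at 174.5 CPM (159 to 191) for the family, or 2.02% of the skeletal level, beside 3.31% for the chondrocyte markers. Here too the members differed from each other. Dcn stood at 15.9 CPM (11.6 to 21.2), 3.53% of its skeletal level, and Lum at 13.4 CPM (9.48 to 18.4), 3.02%. Fmod stood at 2.13%, Bgn at 1.86% and Chad at 1.39% of their skeletal levels. Prelp stood at 3.53 CPM (1.69 to 6.48), 1.06% of its skeletal level, and Aspn had 1 UMI. Ogn had 7 UMIs there, 6.57% of its skeletal level, and 8 UMIs in cluster 1. Together these made 15 of its 25 UMIs outside the skeletal cluster. In cluster 5, 7 of 8 erythroid, 6 of 14 macrophage and 3 of 8 mast cell markers were enriched. No cluster of the UAC library stood apart in this way, the highest being cluster 13 at 44.7 CPM (37.9 to 52.4), and Chad, at 4.68 CPM (2.67 to 7.60) in that cluster, was the member with the largest part of its skeletal level there, 1.96% against 0.462% for Bgn.

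Levels were next compared between libraries within the skeletal cluster. A gene was called where its CPM differed by at least 1.5-fold and the exact intervals of the 2 libraries did not overlap, among genes with at least 50 UMIs in both together. Of the 10 members 8 reached that depth in each comparison, and Epyc and Omd did not. Between UAC and sham, 1 of 8 members (Aspn) was called higher, beside 7.3% of all 10052 genes, and 0 of 8 were called lower, beside 0.935%. Between UAC + miR-330 and UAC, 0 of 8 were called higher, beside 6.51% of 9798 genes, and 1 of 8 (again Aspn) was called lower, beside 5.62%. These counts lie near the background at this fold. At the lowest fold tried, 4 of 8 (Aspn, Bgn, Chad and Lum) were lower in UAC + miR-330 than in UAC, beside 9.55% of all genes. Between UAC and sham at that fold, 3 of 8 (Aspn, Dcn and Ogn) were higher, beside 14.8%, and 2 of 8 (Bgn and Fmod) lower, beside 2.16%. The median log2 ratio of the 8 members was 0.11 for UAC against sham, where all genes had 0.14, and −0.32 for UAC + miR-330 against UAC, where all genes had 0.02. When UMIs were scaled to those of the chondrocyte markers, all 8 tested members had log2 ratios below 0 for UAC + miR-330 against UAC, beside 82.0% of all tested genes, with a median of −0.70 where all genes had −0.37. With the deposited mean counts 5 of 8 were below 0, beside 25.2% of all tested genes, with a median of −0.08 where all genes had 0.25. Per UMI of the chondrocyte markers 6 of 8 were lower by at least 1.5-fold, beside 28.02% of all genes, namely Aspn (−2.06), Chad (−0.81), Lum (−0.78), Bgn (−0.71), Dcn (−0.70) and Prelp (−0.60). In UAC against sham with that scaling, 3 of 8 were higher by at least 1.5-fold, beside 34.5% of all genes, and 0 were lower. Each such scaling shifts every gene of a comparison by the same constant. It therefore leaves the place of the members among all genes unchanged and gives no further check of it. Both comparisons share the UAC library, so an unusual value in that library enters both with opposite sign.

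**Figure D2:**
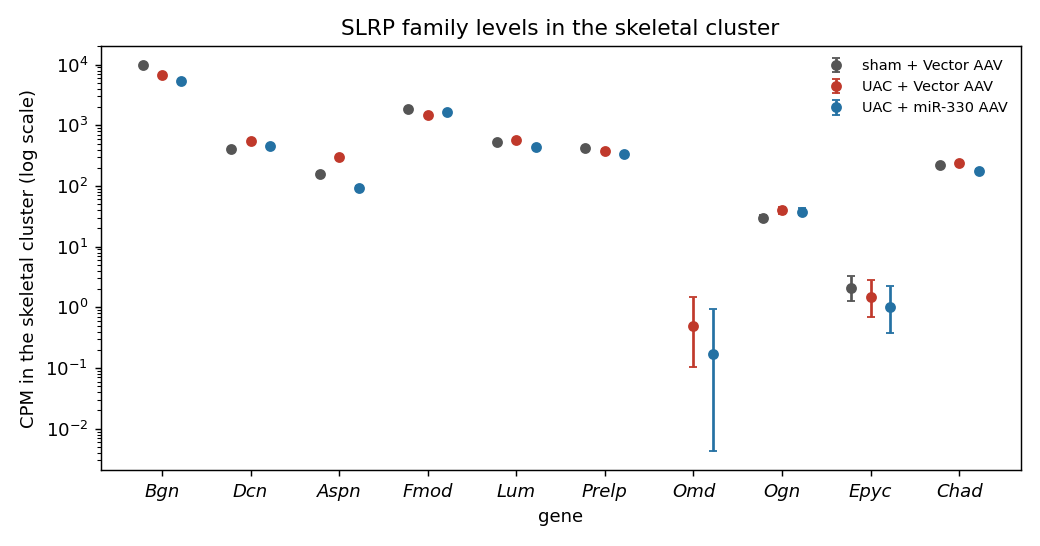
Level of each SLRP gene in the skeletal cluster of the 3 libraries, in CPM on a log axis. Points are single libraries and bars exact Poisson 95% intervals, which are hidden by the points for most genes. Aspn is highest in UAC, at 299.8 CPM, and lowest in UAC + miR-330, at 93.8 CPM.

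Class I holds asporin (Aspn), decorin (Dcn) and biglycan. Asporin carries a run of aspartate residues in place of the usual glycosaminoglycan chain, binds collagen and TGF-β, and is known for association with osteoarthritis. Its level was 159.8 CPM (152 to 168) in sham, 299.8 CPM (286 to 314) in UAC and 93.8 CPM (86.1 to 102) in UAC + miR-330, from 1441, 1793 and 552 UMIs. No pair of these intervals overlapped, with UAC high and UAC + miR-330 low. Aspn was 1.88-fold higher in UAC than in sham, a log2 ratio of 0.91 (0.81 to 1.01), or 0.77 after the median of all genes was taken off. It was 3.197-fold lower in UAC + miR-330 than in UAC, a log2 ratio of −1.68 (−1.82 to −1.54). Outside the skeletal cluster the log2 ratio of UAC against sham was −0.47 (−1.11 to 0.17), from 42 and 46 UMIs, an interval that held 0. Aspn was lower there under miR-330, with 13 UMIs against 42 and a log2 ratio of −1.73 (−2.79 to −0.84).

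Biglycan usually carries a pair of chondroitin or dermatan sulfate chains, and it was the most abundant member in every library. It stood at 9737 CPM (9673 to 9802) in sham, 6837 CPM (6771 to 6903) in UAC and 5469 CPM (5409 to 5529) in UAC + miR-330. The 3 intervals were apart, and the order ran down from sham to UAC to UAC + miR-330. The log2 ratio of UAC against sham was −0.51 (−0.53 to −0.49), under the 1.5-fold line, and it became −0.65, past that line, relative to the median of all genes, but −0.31 with the deposited mean counts and −0.19 per UMI of the chondrocyte markers. That of UAC + miR-330 against UAC was −0.32 (−0.34 to −0.30), and −0.09 with the deposited mean counts.

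Decorin, which carries 1 such chain and binds type I and type II collagen fibrils, was at 414 CPM (400.5 to 427) in sham, 561 CPM (542 to 579.8) in UAC and 449.6 CPM (433 to 467) in UAC + miR-330. UAC lay above both other libraries, whose intervals were also apart from each other. The log2 ratios were 0.44 (0.37 to 0.51) for UAC against sham and −0.32 (−0.39 to −0.24) for UAC + miR-330 against UAC, both under the 1.5-fold line. The first became 0.63 with the deposited mean counts and 0.76 per UMI of the chondrocyte markers, and the second −0.70 per UMI of those markers, each past that line. The second was −0.08 with the deposited mean counts, and the first 0.30 relative to the median of all genes. The sister genes thus stood in unlike proportions, with 23.5 Bgn UMIs (22.8 to 24.3) for each Dcn UMI in sham, 12.2 (11.8 to 12.6) in UAC and 12.2 (11.7 to 12.7) in UAC + miR-330. This ratio is taken within a library and needs no scaling between libraries.

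Class II holds fibromodulin (Fmod), lumican (Lum), PRELP and osteomodulin (Omd). Fibromodulin and lumican bind overlapping places on fibrillar collagen and carry keratan sulfate. Fibromodulin was at 1895 CPM (1866.5 to 1923) in sham, 1498 CPM (1467 to 1529) in UAC and 1635 CPM (1603 to 1668) in UAC + miR-330. Sham was high and UAC low, with no overlap. The log2 ratio of UAC against sham was −0.34 (−0.38 to −0.30), which became −0.14 with the deposited mean counts and −0.02 per UMI of the chondrocyte markers. That of UAC + miR-330 against UAC was 0.13 (0.09 to 0.17), which turned to −0.26 when UMIs were scaled to those of the chondrocyte markers.

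Lumican was at 536 CPM (521 to 551) in sham, 583 CPM (564 to 603) in UAC and 443 CPM (426 to 460.3) in UAC + miR-330. The UAC library was high and the UAC + miR-330 library low, with no overlap. The log2 ratio was 0.12 (0.06 to 0.19) for UAC against sham, which became −0.01 relative to the median of all genes, and −0.40 (−0.47 to −0.32) for UAC + miR-330 against UAC, which became −0.16 with the deposited mean counts. Lumican and fibromodulin therefore differed in their proportion, with 3.54 Fmod UMIs (3.42 to 3.65) per Lum UMI in sham, 2.57 (2.47 to 2.67) in UAC and 3.692 (3.53 to 3.86) in UAC + miR-330. The interval of UAC was apart from both others, while those of sham and UAC + miR-330 overlapped.

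PRELP, which has an arginine- and proline-rich end that binds heparan sulfate, was at 425 CPM (411 to 439) in sham, 385 CPM (369 to 401) in UAC and 333 CPM (318 to 348) in UAC + miR-330. Its intervals were apart and ran down in that order. The log2 ratio was −0.14 (−0.22 to −0.07) for UAC against sham, which turned to 0.05 with the deposited mean counts and to 0.18 when scaled to the chondrocyte markers. It was −0.21 (−0.30 to −0.12) for UAC + miR-330 against UAC, which turned to 0.03 with the deposited mean counts. Osteomodulin, known from mineralised matrix of bone and tooth, had 4 UMIs in the whole UAC library and 1 in the whole UAC + miR-330 library, so no ratio is given. Of these, 3 in UAC and 1 in UAC + miR-330 lay in the skeletal cluster, though all 11 osteogenic markers were enriched there.

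Class III holds osteoglycin (Ogn, also called mimecan) and epiphycan (Epyc). Osteoglycin was at 29.7 CPM (26.3 to 33.5) in sham, 39.8 CPM (34.9 to 45.2) in UAC and 37.6 CPM (32.8 to 42.8) in UAC + miR-330. Sham was apart from UAC and lower, whereas the UAC and UAC + miR-330 intervals overlapped. The log2 ratios were 0.42 (0.16 to 0.68) for UAC against sham and −0.08 (−0.35 to 0.19) for UAC + miR-330 against UAC. The first was past 1.5-fold with the deposited mean counts, at 0.62, where Ogn was called higher, and per UMI of the chondrocyte markers, at 0.75, and was 0.29 relative to the median of all genes. Epiphycan, known from growth-plate cartilage, had 19, 9 and 6 UMIs in the skeletal clusters of sham, UAC and UAC + miR-330. Its levels of 2.11 CPM (1.27 to 3.29), 1.505 CPM (0.688 to 2.86) and 1.02 CPM (0.374 to 2.22) overlapped, and a difference was not detectable at this depth.

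Chondroadherin (Chad), a class IV member that binds type II collagen and integrin α2β1 and carries no long glycosaminoglycan chain, was at 224 CPM (214 to 234) in sham, 238 CPM (226 to 251) in UAC and 178 CPM (167 to 189) in UAC + miR-330. Sham and UAC overlapped, and UAC + miR-330 was below both. The log2 ratio was 0.09 (−0.01 to 0.19) for UAC against sham and −0.42 (−0.54 to −0.31) for UAC + miR-330 against UAC, which became −0.19 with the deposited mean counts.

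Within the family the balance between members is free of scaling between libraries. Biglycan made up 72.5% (72.3 to 72.8) of the family's UMIs in the skeletal cluster of sham, 65.5% (65.1 to 65.8) in UAC and 63.3% (62.9 to 63.7) in UAC + miR-330. Fibromodulin made up 14.1% (13.9 to 14.3), 14.3% (14.1 to 14.6) and 18.9% (18.6 to 19.3) in the same order. Biglycan thus had its largest share in sham and fibromodulin in UAC + miR-330, while the fibromodulin shares of sham and UAC overlapped. Decorin took 3.08% (2.99 to 3.18) in sham, 5.37% (5.19 to 5.55) in UAC and 5.20% (5.01 to 5.40) in UAC + miR-330, and asporin 1.19% (1.13 to 1.253), 2.87% (2.74 to 3.01) and 1.09% (0.997 to 1.18). Decorin's share was thus alike in both UAC libraries, and asporin's was alike in sham and UAC + miR-330, where the intervals overlapped.

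**Figure D3:**
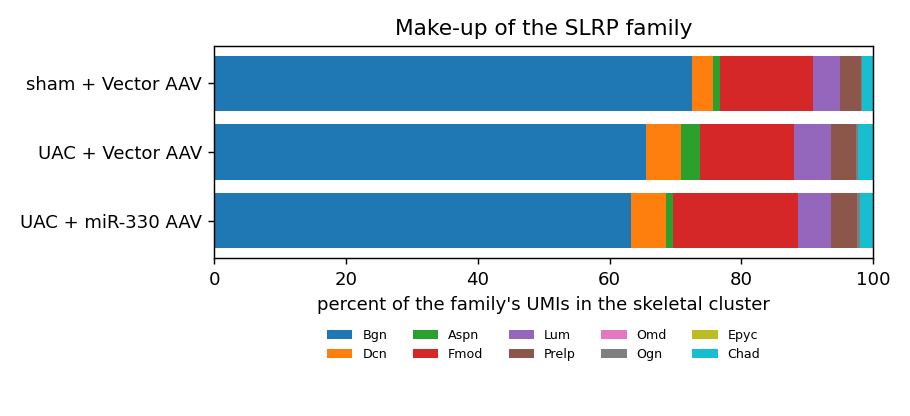
Percent of the UMIs of the SLRP genes that belonged to each member in the skeletal cluster of each library. Bars start at 0 and end at 100. Biglycan is 72.5% in sham, 65.5% in UAC and 63.3% in UAC + miR-330.

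Over all clusters of a library together the picture was different, since the skeletal cluster held 11.6% of UMIs in sham and 6.46% in UAC. Between UAC and sham 0 of 8 members were called higher, beside 6.06% of 14234 genes, and 5 of 8 were called lower, beside 5.11%. Those 5 were Bgn, Fmod, Prelp, Chad and Lum. Biglycan stood at 1173 CPM (1165 to 1180.3) of the whole sham library and 457 CPM (452 to 461) of the whole UAC library, a log2 ratio of −1.36 (−1.38 to −1.34). Aspn, at 19.1 CPM (18.2 to 20.1) and 19.8 CPM (18.9 to 20.7), overlapped between them. Fewer skeletal cells and less RNA per cell cannot be told apart in these sums.

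Between UAC + miR-330 and UAC, over all clusters, 0 of 8 members were called higher, beside 9.97% of 14483 genes, and 1 of 8 lower, beside 2.91%. That member was Aspn, at 5.81 CPM (5.34 to 6.31) against 19.8 CPM (18.9 to 20.7), a log2 ratio of −1.77 (−1.91 to −1.63). The skeletal cluster held similar shares of both libraries, 6.05% and 6.46%, and the ratios of the members over all clusters stayed near those within it. Fibromodulin was at 102.7 CPM (100.7 to 104.8) against 99.98 CPM (97.95 to 102.04), with overlapping intervals.

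**Figure D4:**
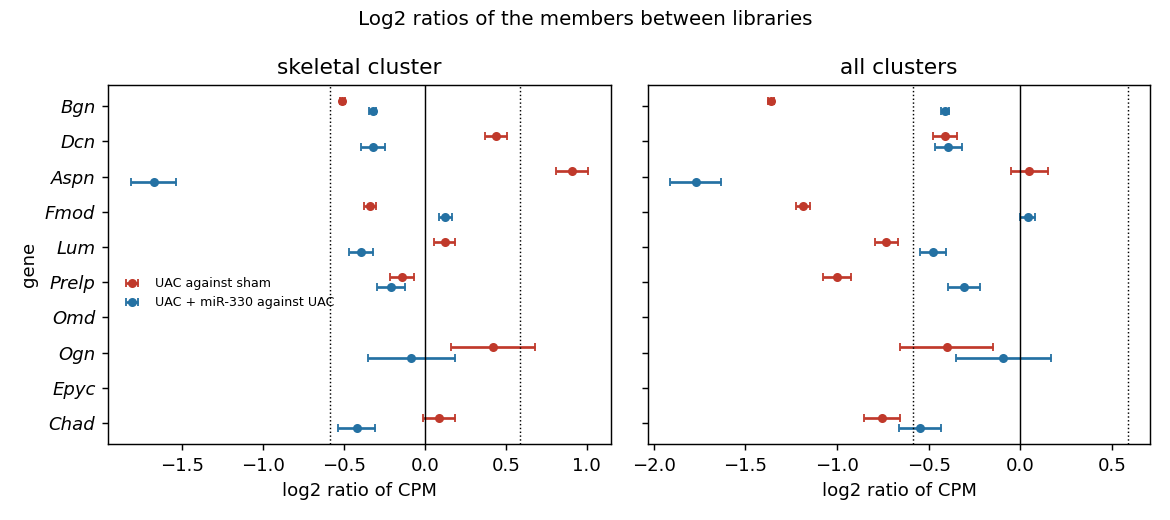
Log2 ratio of CPM of each member in the skeletal cluster (left) and over all clusters (right), with exact 95% intervals, for UAC against sham and for UAC + miR-330 against UAC. Dotted lines mark 1.5-fold; Omd and Epyc had under 50 UMIs and have no point. Aspn is past the line in both comparisons in the skeletal cluster.

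Marker genes of other cells moved with these comparisons inside the skeletal cluster. The 13 neutrophil markers summed to 1261 CPM in sham, 4402 CPM in UAC and 869.6 CPM in UAC + miR-330, with S100a9 the most abundant in sham and UAC and S100a8 in UAC + miR-330, and Ltf at 0 UMIs in sham and UAC + miR-330. None of them was enriched over the rest of its library. Of 8 tested neutrophil markers 7 were called higher and 0 lower in UAC than in sham, and 8 were called lower in UAC + miR-330 than in UAC, with median log2 ratios of 1.72 and −2.31. The chondrocyte markers summed to 64253, 51349.7 and 67039 CPM, with Col2a1 the most abundant and Matn1 at 0 UMIs in UAC and UAC + miR-330. Of 19 tested chondrocyte markers 2 were called lower in UAC than in sham (Ihh and Snorc), and 8 were called higher in UAC + miR-330 than in UAC. The 11 osteogenic markers summed to 70873, 61416 and 61729 CPM, with Col1a1 the most abundant and none at 0. In UAC against sham 3 of 11 were called higher (Mepe at a log2 ratio of 4.52, from 4 UMIs in sham, Dmp1 at 1.18 and Spp1 at 0.74) and 1 lower (Alpl at −0.78), with a median of 0.07. Under miR-330 4 of 11 were called higher (Phex, Ibsp, Runx2 and Alpl) and 1 lower (Dmp1 at −0.90), with a median of 0.36. Dmp1, like Aspn, was thus called higher in UAC and lower under miR-330. So were Lyz2, Thy1, Mmp13, S100a8 and S100a9, among others. Both comparisons share the UAC library, and the share of all genes with both calls was not counted. The 7 listed endothelial markers summed to 47.5, 11.4 and 9.86 CPM, with Cdh5, Kdr, Tek and Emcn at 0 UMIs in UAC and UAC + miR-330. Cldn5 of that list went the other way, with 2 UMIs in sham, 28 in UAC and 19 in UAC + miR-330. The 12 fibroblast markers that were listed summed to 9783, 9124 and 7476 CPM, with Col3a1 the most abundant and none at 0. Their median log2 ratio was 0.45 for UAC against sham, with 3 of 10 called higher (Pdgfrb, Pdgfra and Thy1) and 0 lower. It was −0.40 for UAC + miR-330 against UAC, with 2 of 9 called lower (Thy1 and Col1a2) and 2 higher (Col5a1 and Col6a1). The osteoclast markers summed to 203.9, 296 and 169 CPM, with Ctsk the most abundant and Ocstamp, Atp6v0d2 and Calcr at 0 UMIs in every library. Of 3 tested, 1 was called higher in UAC than in sham (Mmp9, also a neutrophil marker). Ctsk, at 0.55, and Acp5, at 0.13, were not called there. Under miR-330 2 of 3 were called lower (Mmp9 and Ctsk). T and NK cell markers summed to 3.77, 10.2 and 2.38 CPM, with Cd3g the most abundant in sham and Nkg7 in the others, and Gzma and Ncr1 at 0 UMIs in every library. Macrophage and monocyte markers summed to 143, 221 and 147 CPM, with Lyz2 the most abundant and Cd163 at 0 UMIs in every library, and Lyz2, like Aspn, was called higher in UAC than in sham (0.65) and lower under miR-330 (−0.70). Skeletal muscle markers summed to 133, 33.4 and 91.4 CPM, with Tnni2 the most abundant (−2.66 in UAC against sham and 2.10 under miR-330, called in both) and Tnnc2 at 0 UMIs in every library. Erythroid markers summed to 21.2, 11.5 and 21.4 CPM, with Hba-a2 the most abundant and Alas2 at 0 UMIs in UAC. Synovial lining markers summed to 2.22, 4.85 and 75.6 CPM, with Htra4 at 0 UMIs in UAC and Tspan15 in UAC + miR-330. Prg4 was the most abundant of them in UAC and UAC + miR-330, and level with Clic5 in sham, at 6 UMIs each. The sums of the tendon and ligament, mural, dendritic, mast cell and B lineage markers differed by less than 1.5-fold in both comparisons. The order of the neutrophil, osteoclast and T and NK cell sums, with UAC highest and UAC + miR-330 lowest, was also that of Aspn, and the part of any of these lists in the levels of the members was not tested.

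Genes that act on the family were taken as lists. The counts of each list stand beside 7.3% of all genes called higher and 0.935% lower in UAC against sham, and 6.51% higher and 5.62% lower in UAC + miR-330 against UAC. Other SLRP genes outside the 10 had 1 of 5 tested members called higher in UAC than in sham (Optc, opticin, at 4.10 and 9.03 CPM in sham and UAC) and 0 lower, with a median log2 ratio of −0.05 where all genes had 0.14. Between UAC + miR-330 and UAC, 1 of 5 was called lower (Ecm2, a matrix protein with leucine-rich repeats, at 44.0 against 69.1 CPM) and 0 higher, with a median of −0.34 where all genes had 0.02, and all 5 were below 0. Podnl1 and Chadl, the next most abundant, were not called in either comparison.

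The proteases known to cut SLRPs were the pathway list with the most calls between UAC and sham, 6 of 10 higher, beside 7.3% of all genes, and 0 lower, beside 0.935%, with a median log2 ratio of 0.70. Adamts4, an aggrecanase, had a log2 ratio of 1.89, and Mmp13, the collagenase of hypertrophic cartilage, 1.55, from 140.2 CPM in sham to 411 CPM in UAC. Mmp8, at 1.19, and Mmp9, at 0.76, are on the neutrophil list as well, and Mmp9 is also on the osteoclast list. The other called genes were Mmp14 at 0.72 and Adamts5 at 0.67. Between UAC + miR-330 and UAC, 3 of 11 were called lower, beside 5.62% of all genes, and 1 higher, beside 6.51%, with a median of −0.22. The lower genes were Mmp9 at −2.81, Mmp8 at −1.63 and Mmp13 at −0.71, of which Mmp9 and Mmp8 are neutrophil markers, and the higher gene was Adamts5 at 0.64. Htra1 and Mmp2, with the most UMIs of the list, were not called in either comparison.

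Collagens to which SLRPs bind were listed because the family coats their fibrils. In UAC against sham 2 of 16 were called higher (Col5a3 at a log2 ratio of 1.84 and Col14a1 at 1.49) and 0 lower, with a median of −0.08. In UAC + miR-330 against UAC 4 of 16 were called higher and 1 lower, with a median of 0.43 where the 8 SLRP members had −0.32. The largest ratios were 1.19 for Col9a3, 1.16 for Col5a1 and 0.95 for Col6a1, and Col1a2 was called lower at −0.72. Col1a1 and Col2a1, the most abundant, were not called in either comparison, and Col11a1 was called higher under miR-330 at 0.86.

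The enzymes that build SLRP side chains were mostly not called. Of 17 tested enzymes of the chain linker and of chondroitin, 0 were higher and 1 lower in UAC than in sham (Chst3, a chondroitin sulfotransferase, at a log2 ratio of −1.19), with a median of −0.05, and 3 were higher and 0 lower in UAC + miR-330 than in UAC, with a median of 0.24. These 3 were Xylt1, which starts the chain, at 1.14, Csgalnact1 at 0.66 and Fam20b at 0.60, whereas Chst11, Chsy3 and Pxylp1, with the most UMIs, were not called. The 3 dermatan sulfate enzymes, Dse, Dsel and Chst14, had no call, with medians of 0.17 and 0.22. Of 6 tested keratan sulfate enzymes, 1 was lower in UAC than in sham (Chst1, at −0.92) and none was called under miR-330, with medians of 0.18 and 0.14, and St3gal3, B4galt1 and St3gal1 had the most UMIs. Of 6 genes of sulfate supply, none was called in UAC against sham and 1 was higher under miR-330 (the sulfate transporter Slc26a2, at 0.65), with medians of −0.05 and 0.37, and Papss2, Impad1 and Papss1 had the most UMIs.

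Growth factors and receptors bound by SLRPs had no call in either comparison, among 10 and 9 tested, with medians of 0.33 and 0.01. Tgfb1, which decorin, biglycan, asporin and fibromodulin can bind, was at 155, 162 and 127 CPM in sham, UAC and UAC + miR-330, and Tgfb2 and Igf1r were the other most abundant genes of the list. Of the large proteoglycans and link proteins, 2 of 5 were higher in UAC than in sham (Vcan at a log2 ratio of 1.46 and Hapln3 at 0.61) and 1 of 6 was higher under miR-330 (Prg4, lubricin, at 4.21, from 3.85 to 72.9 CPM), with 0 lower in both and medians of 0.37 and 0.27. Hapln1, Acan and the entry matched to Hspg2 had the most UMIs and were not called. These lists overlap in part with the marker lists.

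The pattern of each member except Epyc and Omd over the 52 clusters of the 3 libraries was set beside that of 11724 genes. The measure was Pearson's r of log2(CPM + 1). Clusters of a library share its depth and its cells, and 3 of the points are skeletal clusters, so r is high for any gene of that cluster. Bgn was most like Col3a1 (r = 0.991), Comp and RGD1305645, and Fmod most like Col9a2 (0.991), Sparc and Col1a1. Lum was most like Fmod (0.981), AABR07068316.1 and Dcn, and Dcn most like Bglap (0.978), Lum and Gpx8. Aspn was most like C1qtnf5 (0.976), Dlx5 and Chadl, Prelp like Olfml3 (0.976), Fibin and NEWGENE_1307313, Ogn like Hrasls (0.967), Ncam1 and Mmp13, and Chad like Spp1 (0.973), Col6a2 and Lrrc17. Of the members compared, Lum, Fmod and Dcn were thus the only ones to appear among the 3 nearest genes of another over all clusters.

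Without the skeletal clusters, over the other 49, the nearest genes of Bgn were the same, Col3a1 (r = 0.959), Comp and RGD1305645. Those of Fmod were again Col1a1 (0.965), Sparc and Col9a2. Bgn was now among the 3 nearest genes of Chad (0.810), Prelp (0.801) and Aspn (0.720). Dcn was nearest to Bglap (0.886), Lum and Col9a1, and Lum to Col1a1 (0.889), Col3a1 and AABR07068316.1. The values were lower for members with few UMIs there, such as Aspn, whose nearest gene was Postn (0.736), with Ndufa4l2 as the other, and Ogn, whose nearest were AABR07051611.1 (0.656), Mmp13 and Hid1. Prelp was also near Olfml3 (0.805) and Fam180a, and Chad near Spp1 (0.807) and Col6a2.

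Several members are neighbours in the rat genome. In the RefSeq annotation of GRCr8, Dcn and Lum lie next to each other on chromosome 7, with Epyc on the far side of Kera. Prelp and Fmod are adjacent on chromosome 13, and Ogn, Omd and Aspn follow each other on chromosome 17. In the chromosome 17 group Omd had 3 UMIs in the skeletal cluster of UAC, where its neighbours Ogn and Aspn had 238 and 1793. The Aspn UMIs per Ogn UMI were 5.38 (4.72 to 6.15) in sham, 7.53 (6.58 to 8.66) in UAC and 2.50 (2.13 to 2.93) in UAC + miR-330, with no overlap between the libraries. By contrast the ratio of Dcn to Lum was 0.772 (0.739 to 0.806) in sham and then 0.961 (0.916 to 1.01) in UAC and 1.01 (0.961 to 1.07) in UAC + miR-330, the last 2 overlapping.

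The promoters of the chromosome 17 neighbours are shown because these genes lie side by side and yet differed so much in counted UMIs. Their ratios also differed between libraries. RefSeq promoter sequences of GRCr8, from 250 bases before the gene start to 50 after it, were matched for 7 of the 10 members. Each was searched on both strands for 6 short motifs, given here with the share of all 33469 promoters that hold them. They were TGANTCA of AP-1 (7.33%), CAGAC of SMAD proteins (50.1%), TGTGGT of RUNX proteins (17.3%), TATAAA (14.2%), the E-box CANNTG (72.1%) and ACAAAG of SOX proteins (18.8%). Capitals mark the matches. Aspn held 1 E-box and no other motif, at chr17:15310420-15310719 on the minus strand. Omd held none of the 6, at chr17:15274821-15275120 on the minus strand. Ogn held 1 SMAD motif, 1 RUNX motif, 2 TATAAA matches that overlap each other and 4 E-boxes, of which 1 overlaps the RUNX motif, at chr17:15258946-15259245 on the minus strand.
Aspn: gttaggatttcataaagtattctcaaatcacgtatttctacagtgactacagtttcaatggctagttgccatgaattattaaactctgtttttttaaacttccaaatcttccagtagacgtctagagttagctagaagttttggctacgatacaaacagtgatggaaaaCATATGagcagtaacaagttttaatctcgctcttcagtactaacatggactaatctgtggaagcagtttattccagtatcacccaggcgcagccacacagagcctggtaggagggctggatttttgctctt
Omd: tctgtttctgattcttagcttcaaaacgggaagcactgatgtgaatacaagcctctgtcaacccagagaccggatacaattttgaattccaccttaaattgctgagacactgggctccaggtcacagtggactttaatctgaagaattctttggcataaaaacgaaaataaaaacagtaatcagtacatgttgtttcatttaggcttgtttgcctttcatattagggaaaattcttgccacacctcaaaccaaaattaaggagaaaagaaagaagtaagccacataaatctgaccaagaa
Ogn: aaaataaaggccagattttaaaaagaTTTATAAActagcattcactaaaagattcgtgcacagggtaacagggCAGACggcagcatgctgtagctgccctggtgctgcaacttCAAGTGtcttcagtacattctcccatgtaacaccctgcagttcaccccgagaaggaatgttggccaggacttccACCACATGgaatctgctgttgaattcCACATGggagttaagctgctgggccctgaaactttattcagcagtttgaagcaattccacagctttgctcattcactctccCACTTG

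Among the other members, Lum held 3 SMAD motifs, 1 RUNX motif and 1 E-box, Fmod 2 SMAD motifs, Epyc 1 RUNX motif and 5 E-boxes, and Chad 1 TATAAA and 3 E-boxes. AP-1 and SOX motifs were in none of the 7 windows. A match is a description of letters only.

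The agent given on top of UAC was miR-330, and its mature RNAs are shown so that the sequence behind the comparison can be seen. The labels name no arm, so both rat arms are given as RefSeq lists them on GRCr8, plus strand, with the seed (bases 2 to 8) in capitals. The 5p arm lies at chr1:87961227-87961248 and the 3p arm at chr1:87961266-87961288. The seeds of the arms differ, and no target search was made.
rno-miR-330-5p: uCUCUGGGccugugucuuaggc
rno-miR-330-3p: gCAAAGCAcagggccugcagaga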

How the data were processed

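The authors deposited a cluster table per library, whose mean counts are a signal that was scaled by a constant for each cluster, so that every cluster of a library has the same total. The submitters' processing notes name Cell Ranger 7.0, STAR, Seurat 4.0.1 and the human and mouse genome builds GRCh38 and mm10, although the samples are from rats; the build of these tables is not given in the sources used here. The tables' log2 fold change and adjusted p columns hold the authors' comparisons of clusters and were not used. Each mean was divided by the smallest mean above 0 of its cluster, which gave whole numbers (within 0.001) for 100% of values, taken as UMIs. Same-named entries were added. Doublets were left untreated, as sums over a cluster hold no single cells. A count model was not run, since 1 library per group gives no spread.

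A marker was enriched at a log2 difference of at least 1 from the other clusters, after 1 CPM was added, and at least 10 UMIs; the cluster with the most enriched chondrocyte markers was the skeletal cluster. Intervals were exact Poisson for CPM, exact binomial for shares and exact conditional binomial for ratios; 0.5 UMI was added to counts in log2 ratios. Genes listed in both libraries were compared. Of 240 genes on 25 lists, 227 were matched by name and 2 through synonyms. The named genes were all members, and for each pathway list its 3 most abundant genes and its called genes. For each member except Epyc and Omd, its 3 most alike genes with at least 100 UMIs in each library were named. Of the marker lists only some genes were named. Members and lists were chosen with earlier results of these data known. The calling was tested on simulated counts with counting error only and planted changes larger than 1.5-fold. That test says nothing of spread between libraries. Other scalings, folds, minimum UMIs and marker rules were tried. Python 3.11.15, numpy 2.4.6, pandas 2.3.3, scipy 1.17.1 and matplotlib 3.10.9 were used.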

Additional observations from a re-analysis of the deposited data

Results flagged for a closer look

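In UAC against sham, 2 members had log2 ratios of opposite sign in the skeletal cluster and in the rest of the library with both intervals clear of 0. Decorin had a log2 ratio of 0.44 (0.37 to 0.51) in the skeletal cluster and −0.61 (−1.09 to −0.14) over the other clusters, from 85 UMIs there in sham and 70 in UAC. Lumican had 0.12 (0.06 to 0.19) in the skeletal cluster and −0.998 (−1.37 to −0.64) over the other clusters, from 168 and 106 UMIs. Its skeletal ratio became −0.013 relative to the median of all genes, so the opposite sign of lumican depends on the scaling. Aspn (0.91, then −0.47, −1.11 to 0.17) and Chad (0.09, −0.01 to 0.19, then −0.72, −1.22 to −0.23) also had opposite signs, with 1 interval that held 0. Lower levels outside were not particular to these members: Bgn had −1.53 and Prelp −1.41 there, Fmod was lower too, and Ogn had 0.06 (−1.29 to 1.51). The difference between the 2 places was not tested, each has 1 library per group, and 20 of the decorin and 39 of the lumican UMIs of sham came from cluster 14.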

How the results depend on the processing

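The skeletal cluster was the same with a log2 difference of 2 and with chondrocyte, osteogenic and fibroblast markers counted together. The make-up of the family over all clusters stayed within the intervals of the skeletal cluster. Within a library, deposited mean counts order the clusters as CPM does by construction, so they give no check of where a member was highest. In UAC against sham within that cluster, 3 members were higher with deposited mean counts (beside 16.9% of all genes, as in the next brackets), 1 was lower (Bgn) after the median of all genes was taken off (1.74%), 0 were higher at 2-fold (2.85%), and 3 were higher (14.8%) and 2 lower (2.16%) at the lowest fold tried. In UAC + miR-330 against UAC, 4 were lower at the lowest fold (9.55%). Over all clusters, 3 were lower in UAC than in sham with deposited mean counts (2.95%), 2 at 2-fold (1.88%) and 7 at the lowest fold (11.4%); under miR-330, 3 were lower relative to the median (4.83%), 2 without blood and abundant genes (3.71%) and 5 at the lowest fold (7.47%). Among ratios whose interval was clear of 0, those that changed sign were Lum in UAC against sham relative to the median (−0.013), Prelp in UAC against sham with deposited mean counts (0.053) and per chondrocyte marker UMI (0.18), Fmod under miR-330 per chondrocyte marker UMI (−0.26) and Prelp under miR-330 with deposited mean counts (0.025). Chad in UAC against sham (−0.047 relative to the median) and Ogn under miR-330 (0.15 with deposited mean counts) changed sign as well, from intervals that held 0. Each of these scalings shifts every gene of a comparison by the same amount, so these sign changes come from that shift. For the deposited mean counts it stems from totals per cluster of 4541 in sham, 5200 in UAC and 6123.5 in UAC + miR-330. Why the totals differ was not tested. Within the skeletal cluster Aspn stayed higher in UAC than in sham, at log2 ratios of 0.77 to 1.23, and lower under miR-330, at −2.06 to −1.44. Over all clusters its ratio of UAC against sham was 0.05 (−0.05 to 0.15). Leaving out Aspn and the sign changes, 27 ratios of single members moved beyond their counting interval and 68 did not. Those 68 hold every ratio of Epyc and Omd, which had under 50 UMIs and intervals too wide to be left. The settings differed in this. With Aspn and sign changes counted, deposited mean counts moved 12 ratios, reversed 2 and left 5. Scaling to the chondrocyte markers moved 14, reversed 2 and left 3. Adding 5 UMIs left all 19, as did UMIs of all clusters per skeletal UMIs. Neither setting could move most ratios far, since most members have many UMIs and nearly all of those lie in the skeletal cluster. Adding the entry Aspnl1 to Aspn was chosen after the data had been seen and left its ratios within their intervals. The split of all called genes depends on scaling and fold: in UAC against sham within the skeletal cluster 88.6% of called genes were higher, and 71.7% relative to the median; under miR-330 there 53.7% were higher, with 85.7% by deposited mean counts, 48.5% without blood and abundant genes and 43.0% at 2-fold. Over all clusters these shares were 54.2% in UAC against sham, with 78.0% by deposited mean counts and 49.3% at the lowest fold, and 77.4% under miR-330, with 95.7% by deposited mean counts, 66.2% without blood and abundant genes and 52.6% relative to the median. Each group was 1 library, so intervals say nothing of differences between rats, dissociations or runs.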
